A study of Homo sapiens with 10 samples.

Results

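The regions described here are stretches of chromatin where Rb was detected at the promoter of a long non-coding RNA (lncRNA) gene and at no promoter of a protein-coding gene. They were found by merging the peaks of all 8 Rb libraries that overlapped by at least 1 bp on chromosomes 1 to 22 and X. A merged region was kept when it overlapped a promoter of a lncRNA gene, from 2000 bp upstream to 500 bp downstream of a transcript start, and no such window of a protein-coding gene. This gave 1367 lncRNA-only regions among 22760 Rb regions, against 14482 regions at protein-coding promoters, 6617 outside promoters and 294 at promoters of other gene types. A region entered through a peak in at least 1 library, 840 of them through INX-315 libraries only and 63 through DMSO libraries only, so that counts of regions by treatment rest on the same peaks that defined the regions.

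Rb occupancy had been profiled by CUT&RUN, in which an antibody guides a nuclease to the protein on chromatin and the released DNA is sequenced. Kuramochi and OVCAR-3, both ovarian cancer lines of the high-grade serous type with a genotype labelled WT, were exposed for 2 days to INX-315, which inhibits CDK2, at 300 nM or to an equal volume of DMSO. For every line and treatment there were 2 Rb libraries, and a further IgG2a library per line came from cells given DMSO. The labels do not say whether replicates came from separate cultures. The authors describe them as biological replicates from a single experiment, so that tests over libraries measure only the spread between these libraries. The legend of the authors' first figure, which shows breast cancer models, gives 2 independent cultures or tumours per condition unless otherwise indicated.

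Rb is a pocket protein that is recruited to DNA by E2F transcription factors and is released when cyclin-dependent kinases phosphorylate it. Many lncRNA genes start at CpG-rich promoters like those of protein-coding genes, and some carry microRNAs or small nucleolar RNAs in their introns. Others are transcribed antisense to a coding gene or descend from duplicated genes that lost their reading frame.

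A few 200 bp windows around the summit, the base with the highest signal, show what kind of sequence lay under these peaks (hg38, plus strand). The first window is from LINC01144 at chr1:45303815-45304014, the named lncRNA-only region with the highest rank, and its capitals mark the 19 CpG dinucleotides. The second is DPY19L2P2 at chr7:103280103-103280302, the highest of those gained in both lines, with its 13 CpG dinucleotides in capitals. The others hold an E2F string, marked in capitals. These are MIR924HG at chr18:39800057-39800256, called in OVCAR-3 libraries and in no Kuramochi library, and ZNF876P at chr4:212695-212894 and LIPE-AS1 at chr19:42401978-42402177, both gained in Kuramochi only. LINC01144, DPY19L2P2 and MIR924HG were added to the rule for printed sequences after their values were seen.
LINC01144: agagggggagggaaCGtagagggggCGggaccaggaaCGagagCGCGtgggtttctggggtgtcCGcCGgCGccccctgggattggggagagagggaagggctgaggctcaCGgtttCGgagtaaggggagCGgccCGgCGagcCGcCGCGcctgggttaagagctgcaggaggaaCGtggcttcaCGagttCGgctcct
DPY19L2P2: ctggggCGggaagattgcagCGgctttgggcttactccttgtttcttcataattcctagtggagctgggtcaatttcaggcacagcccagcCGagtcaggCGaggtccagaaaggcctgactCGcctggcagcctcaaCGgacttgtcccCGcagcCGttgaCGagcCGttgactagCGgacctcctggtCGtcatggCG
MIR924HG: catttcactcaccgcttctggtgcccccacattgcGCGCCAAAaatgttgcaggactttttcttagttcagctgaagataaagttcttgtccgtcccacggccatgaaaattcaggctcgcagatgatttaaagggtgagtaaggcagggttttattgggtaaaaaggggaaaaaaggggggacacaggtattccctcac
ZNF876P: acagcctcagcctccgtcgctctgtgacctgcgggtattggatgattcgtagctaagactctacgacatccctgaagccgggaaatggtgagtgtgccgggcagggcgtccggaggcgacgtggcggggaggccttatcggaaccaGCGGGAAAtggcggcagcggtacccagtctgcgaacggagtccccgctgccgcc
LIPE-AS1: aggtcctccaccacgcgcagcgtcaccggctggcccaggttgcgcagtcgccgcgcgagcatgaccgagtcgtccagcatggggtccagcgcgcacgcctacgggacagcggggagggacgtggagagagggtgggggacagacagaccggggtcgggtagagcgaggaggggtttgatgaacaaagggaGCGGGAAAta

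The lncRNA-only regions lay near the starts of 1439 of the 18756 lncRNA genes of the annotation, or 7.67%. The summit was within 250 bp of the nearest lncRNA start in 761 regions (55.7%), and the median distance was 210 bp. For 744 regions (54.4%) the nearest lncRNA had an Ensembl identifier and no symbol, 265 (19.4%) were at LINC genes, 136 (9.95%) at genes named as antisense and 42 (3.07%) at host genes of small RNAs. Outside protein-coding gene bodies lay 1059 summits, 243 were in an intron and 65 in an exon of a coding gene. The nearest protein-coding start was a median of 21585 bp away, and 386 regions (28.2%) were over 50 kb from any. A further 170 regions (12.4%) also overlapped a pseudogene promoter, where reads can be shared with a near-identical parent gene, so that the origin of the signal is uncertain there.

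Fewer lncRNA-only than coding promoter regions were called in every library, and more of both were called after INX-315. In OVCAR-3, the DMSO libraries called 216 and 303 lncRNA-only regions (259.5 ± 61.5, SD, n = 2) and the INX-315 libraries 638 and 981 (809.5 ± 243, SD, n = 2). The Kuramochi counts were 177 and 365 with DMSO (271 ± 133, SD, n = 2) and 764 and 627 with INX-315 (695.5 ± 96.9, SD, n = 2). The treated and control libraries did not overlap in either line. The mean log2 ratio of INX-315 to DMSO was 1.54 (1.63 in OVCAR-3 and 1.45 in Kuramochi). Its two-sided exact permutation p was 0.0556, the smallest value that 36 arrangements of labels within lines allow. The counted peaks also defined the regions, so this p-value does not test Rb at a fixed set of promoters.

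The count rose further than that of coding promoter regions, by 0.57 on the log2 scale (exact permutation p = 0.0556, again the smallest possible). This comparison rests on the same peaks that defined both classes, with the same limit. Per 100 coding promoter regions called, the DMSO libraries had 4.12 and 4.66 lncRNA-only regions (OVCAR-3) and 3.95 and 5.26 (Kuramochi). The INX-315 libraries had 6.13 and 7.71 (OVCAR-3) and 6.68 and 6.10 (Kuramochi). The lists themselves differed in length, from 5196 to 17203 peaks, and both directions turned when each list was cut to its 5196 peaks with the highest −log10 p. The log2 ratio was then −0.11 (exact permutation p = 0.111) and the difference from coding promoter regions −0.18 (exact permutation p = 0.0556). At equal list length the lncRNA-only regions numbered 185 and 196 with DMSO against 188 and 175 with INX-315 for OVCAR-3, and 177 and 193 against 162 and 172 for Kuramochi.

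The share of regions called was lower for lncRNA-only than for coding promoter regions in 8 of 8 libraries, by 21.5 percentage points on average (exact sign-flip permutation p = 0.0078, the smallest that 8 libraries allow). Peaks of these same libraries defined both classes, and a region called in a single library lowers the share in every other. This p-value therefore does not test Rb at a fixed set of promoters. Under DMSO, 12.9% to 26.7% of the lncRNA-only regions were called per library, and under INX-315 45.9% to 71.8%. The lncRNA-only peaks also ranked lower by fold enrichment within their own list, the ratio of fragments at the summit to local background. Their median percentile rank was 14.6 points below that of coding promoter regions, again in 8 of 8 libraries (exact sign-flip permutation p = 0.0078), and 4.55 points below at equal list length. The lncRNA-only regions were also narrower, at a median width of 538 bp against 998 bp. The part of width in either difference was not tested. Peaks at lncRNA-only regions rested on few fragments, with a median of 8.5 to 12 at the summit per library.

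**Figure D1:**
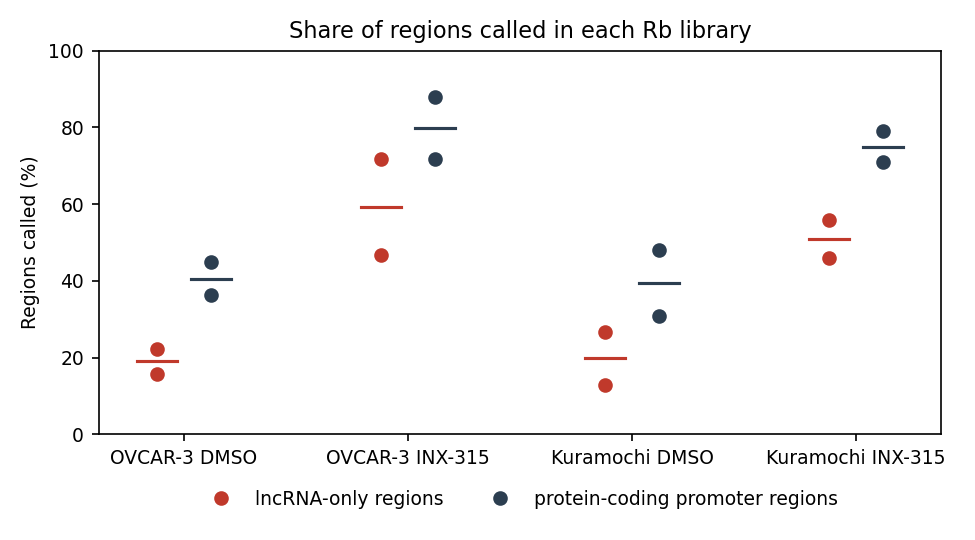
Share of lncRNA-only regions (red) and of protein-coding promoter regions (dark) called in each Rb library, in percent on the y axis, with 1 point per library and a line at the mean of the 2 libraries. The lncRNA-only regions sit below the coding promoter regions in every library, at 12.9% to 26.7% under DMSO and 45.9% to 71.8% under INX-315.

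Fewer lncRNA-only than coding promoter regions recurred across all libraries. Only 96 of 1367 (7.02%) were called in all 8, beside 14.4% of all Rb regions and 21.2% of coding promoter regions. By contrast 560 (41.0%) were called in a single library, against 17.4% of coding promoter regions, and 254 of these came from OVCAR-3 INX-315 replicate 2, the library with the longest list. In OVCAR-3, 161 lncRNA-only regions (11.8%) were called in all 4 libraries, beside 21.5% of all Rb regions. In Kuramochi the count was 155 (11.3%), beside 19.8%. Coding promoter regions made up most of the regions behind these overall shares. They were 3076 of the 3269 called in all 8 libraries, 4533 of the 4885 in OVCAR-3 and 4161 of the 4513 in Kuramochi. These shares thus contrast the lncRNA-only regions mainly with coding promoters. The remaining Rb regions, of neither class, recurred in a smaller share than the lncRNA-only regions. This held for all 8 libraries and for all 4 of either line. In recurrence the lncRNA-only regions therefore lay between the coding promoter regions and the remaining Rb regions.

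**Figure D2:**
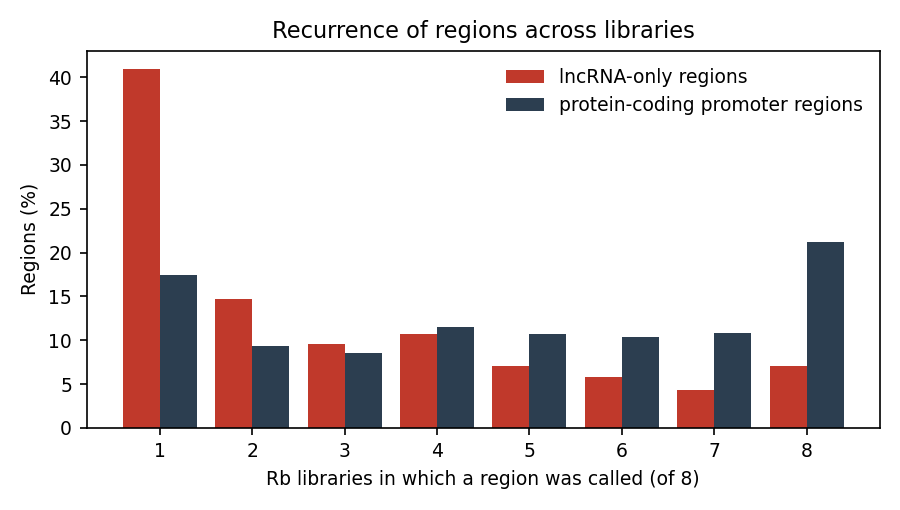
Percentage of lncRNA-only regions (red bars) and protein-coding promoter regions (dark bars) on the y axis, by the number of the 8 Rb libraries that called them on the x axis. The lncRNA-only regions pile up at 1 library (41.0%) and the coding promoter regions at 8 libraries (21.2%).

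A region was counted as gained when both INX-315 libraries of a line and neither DMSO library called it. In OVCAR-3, 267 lncRNA-only regions (19.5%) were gained, beside 18.2% of all Rb regions. In Kuramochi 219 (16.02%) were gained, beside 15.1%. No lncRNA-only region was lost in either line, but losses were rare over all 22760 Rb regions, with 11 in OVCAR-3 and 7 in Kuramochi. The lncRNA-only regions gained in both lines numbered 80, which is 30.0% of the OVCAR-3 set and 36.5% of the Kuramochi set. Over all Rb regions these shares were 31.2% and 37.6%, near those of the lncRNA-only regions. The gained share was also taken among regions free of a peak in both DMSO libraries of a line. For OVCAR-3 this gave 26.4% of lncRNA-only, 44.7% of coding promoter and 29.1% of all Rb regions. The Kuramochi values were 22.3%, 38.8% and 24.7%. The lncRNA-only shares thus lay below those of coding promoters and near the overall ones. Rb regions of neither class were gained in a smaller share than the lncRNA-only regions in either line. With lists of equal length, 17 lncRNA-only regions were gained for OVCAR-3 and 21 for Kuramochi. Leaving out INX-315 replicate 1 of OVCAR-3 raised the OVCAR-3 count to 650, and leaving out INX-315 replicate 2 or DMSO replicate 2 of Kuramochi raised the Kuramochi count to 434 or 352.

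The named regions with the highest mean rank among those called in all 8 libraries covered LINC genes, relatives of duplicated genes and host genes of microRNAs. LINC01144, in an intron of ZSWIM5, had OVCAR-3 fold enrichments of 24.1 and 18.6 with DMSO against 48.2 and 83.8 with INX-315, and Kuramochi values of 14.6 and 36.9 against 45.3 and 50.9. Each INX-315 value lay above each DMSO value of the same line. The same separation held in both lines for 77 of the 96 lncRNA-only regions called in all libraries, beside 86.0% of all regions called in all libraries, so that the lncRNA-only regions did not stand above the rest.

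MIRLET7IHG (chr12:62601976-62603843) and MIRLET7A1HG (chr9:94165759-94167419) host members of the let-7 family, microRNAs that repress growth regulators. MIRLET7A1HG had fold enrichments of 9.74 and 13.99 against 31.9 and 48.6 in OVCAR-3, and 15.02 and 13.8 against 32.5 and 30.7 in Kuramochi. MIRLET7IHG had 19.4 and 23.3 against 40.6 and 47.2 in OVCAR-3, and 9.86 and 19.1 against 22.4 and 23.6 in Kuramochi. MIR9-1HG and DLEU2, which hosts the miR-15a and miR-16-1 cluster, closed the group with mean ranks of 89.4 and 87.8.

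The named regions gained in both lines were weaker, which follows in part from how they were chosen. No DMSO library called them, whereas the named regions above were the highest in rank among those called in all 8 libraries. DPY19L2P2, with a summit 16 bp from its start, had fold enrichments of 9.84 and 16.3 in the OVCAR-3 and 20.6 and 12.3 in the Kuramochi INX-315 libraries. LINC01694 had 13.0 and 20.3 in OVCAR-3 and 10.6 and 11.0 in Kuramochi. The other 8 regions named by rank were CDRT15P3, LINC01376, LINC02693, RNF216P1, ZNF767P, LINC03015, SLCO4A1-AS2 and LINC01238, with mean ranks over the INX-315 libraries of 66.8 down to 47.5.

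**Figure D3:**
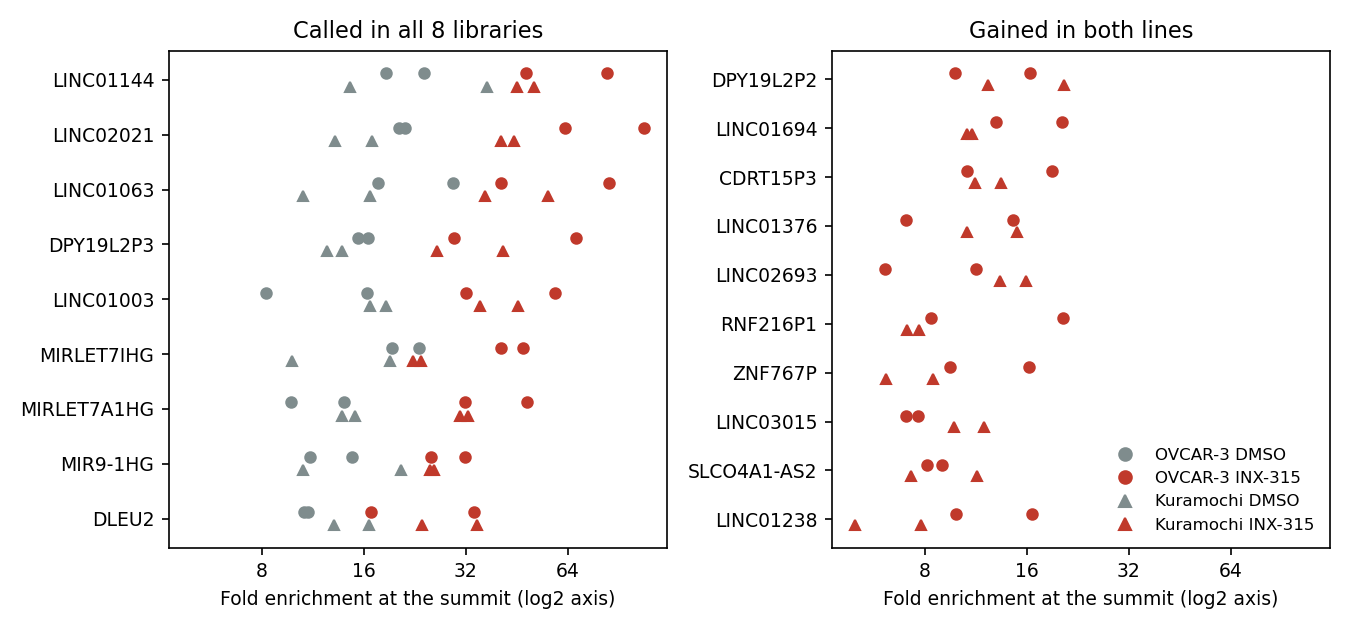
Fold enrichment at the summit on a log2 axis for 9 named regions of highest rank called in all 8 libraries (left) and the 10 gained in both lines (right), with 1 point per library, circles for OVCAR-3, triangles for Kuramochi, grey for DMSO and red for INX-315. Red points lie to the right of grey ones of the same line at every region on the left, and the right panel holds INX-315 points only, because no DMSO library called those regions.

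Some regions were called in one line only. In OVCAR-3, 83 of the 267 gained lncRNA-only regions (31.1%) were called in no Kuramochi library, beside 21.3% of all gained Rb regions. They included PARD6G-AS1 (12.9 and 14.1) and SNHG16 (7.18 and 10.5), a snoRNA host gene. In Kuramochi, 35 of 219 (15.98%) were called in no OVCAR-3 library, beside 10.7% of all gained regions, among them ZNF876P (13.9 and 10.6) and LIPE-AS1 (9.14 and 8.86), in an intron of the hormone-sensitive lipase gene LIPE. All 4 libraries of one line and none of the other called 12 lncRNA-only regions for OVCAR-3 (7.45% of the 161 called in all 4, beside 1.86% of all such regions) and 8 for Kuramochi (5.16% of 155, beside 1.51%). These differences in share were not tested. Coding promoter regions made up 3257 of the 4145 Rb regions gained in OVCAR-3 and 2805 of the 3448 gained in Kuramochi. They also made up most of those called in all 4 libraries of a line, so the overall shares are mostly theirs. Of the 881 Rb regions gained in OVCAR-3 and called in no Kuramochi library, 507 were coding promoter and 83 lncRNA-only regions. For Kuramochi the counts were 369, 215 and 35. Of those called in all 4 libraries of one line only, they were 91, 62 and 12 for OVCAR-3 and 68, 39 and 8 for Kuramochi. In each case the remaining Rb regions, of neither class, were confined to a line in a larger share than the lncRNA-only regions. Confinement to a line was thus not particular to lncRNA-only regions. MIR924HG had 17.0 and 15.1 with DMSO against 17.7 and 30.0 with INX-315 in OVCAR-3. MIR200CHG, host of the miR-200c and miR-141 genes that maintain the epithelial state, had 9.65 and 5.89 against 11.2 and 13.9. LINC02983 was the strongest of this kind in Kuramochi, with 6.53 and 12.4 against 16.8 and 11.1. A region missing from a list can be one that fell below the caller's threshold.

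The change in fold enrichment was tested with limma over the 3269 regions called in all 8 libraries, of which 96 were lncRNA-only. Averaged over lines, 85 of the 96 lncRNA-only regions passed as higher under INX-315 at a limma adjusted p of 0.05 and none as lower, beside 95.0% of all regions tested. Their median log2 change was 1.33, against 1.31 over all regions, and it ranged from 0.16 to 2.08. In OVCAR-3, 80 passed as higher, beside 87.3% of all regions, a count that fell to 43 without INX-315 replicate 2 and to 51 without DMSO replicate 1. In Kuramochi 61 passed, beside 65.4%, a count that fell to 0 without INX-315 replicate 1 and to 3 without DMSO replicate 1. The rise was thus shared by nearly all regions, and a shift of a whole library cannot be told apart from a change at each region.

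Relative to that shift, with each library centred on its median, few lncRNA-only regions stood out. At a limma adjusted p of 0.05, 2 of the 96 (2.08%) passed as rising more than the median region, beside 3.55% of all regions. As rising less, 14 (14.6%) passed, beside 8.44%. FAM86EP, a relative of the FAM86 methyltransferase genes, was at 5.90 and 6.59 with DMSO against 18.98 and 44.2 with INX-315 in OVCAR-3, and at 6.92 and 7.25 against 27.0 and 20.6 in Kuramochi. Its log2 change was 1.98 (SE 0.32, limma adjusted p = 3.19e-08) and 0.63 above the median after centring (limma adjusted p = 0.0320). SAMMSON, a lncRNA near MITF known from melanoma, was at 6.89 and 7.37 against 5.64 and 9.94 in OVCAR-3, and at 6.23 and 13.8 against 11.4 and 10.7 in Kuramochi. Treated and control libraries overlapped there in both lines, with a log2 change of 0.16 and a centred value of −1.19 (limma adjusted p = 0.000833).

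The 5 named regions with the largest rise were FAM86EP, RAET1K, LINC02018, SVIL-AS1 and FAM86C2P, with log2 changes from 1.98 down to 1.85. After centring, RAET1K, LINC02018, SVIL-AS1 and FAM86C2P no longer passed (limma adjusted p = 0.0581 to 0.140). All 5 also overlapped a promoter of a transcribed pseudogene. Over the 96 regions, the 32 at a pseudogene promoter had a median log2 change of 1.43 and the other 64 one of 1.21. Regions at a pseudogene promoter were called in all 8 libraries in 18.8% of cases, against 5.35% elsewhere. Whether reads of near-identical copies took part in this was not tested.

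**Figure D4:**
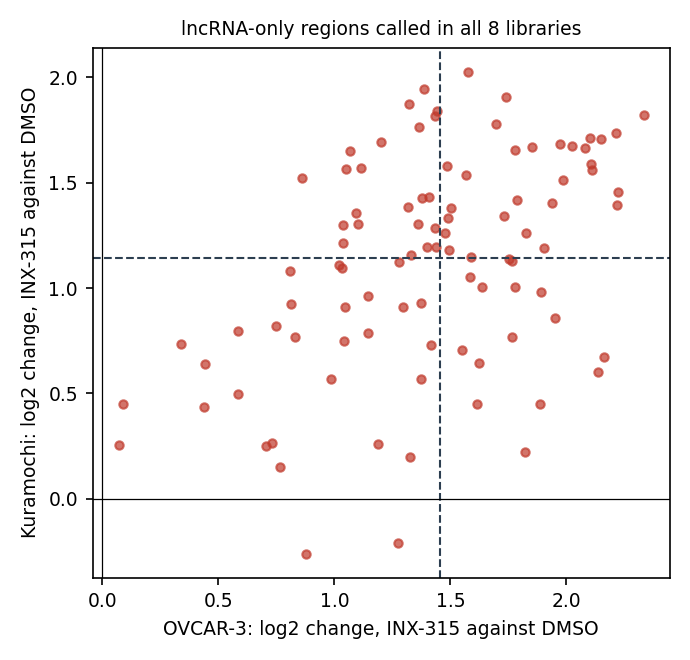
Log2 change in fold enrichment under INX-315 against DMSO in OVCAR-3 (x axis) and Kuramochi (y axis) for the 96 lncRNA-only regions called in all 8 libraries, 1 point per region, with dashed lines at the median of all 3269 regions. The points spread around the crossing of the dashed lines at 1.45 and 1.14, and 94 of 96 lie above 0 in Kuramochi.

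No region had a treatment effect that differed between the lines by limma's interaction test at an adjusted p of 0.05. At an unadjusted p under 0.05, 5 of the 96 lncRNA-only and 99 of all 3269 regions passed. In simulated data, isolated changes of 1 on the log2 scale were seldom recovered by the treatment test, so the 0 calls do not show that the lines respond alike. Between the lines themselves, averaged over treatments, 8 of the 96 differed, beside 7.83% of all regions, with 6 higher in OVCAR-3 and 2 lower. Leaving out 1 library gave counts of 4 (without Kuramochi INX-315 replicate 2) to 21 (without OVCAR-3 INX-315 replicate 1), and without OVCAR-3 INX-315 replicate 2 there were 5 higher and 9 lower. Without OVCAR-3 DMSO replicate 2 or Kuramochi INX-315 replicate 1 the count was 5. After centring the count was 33, beside 34.1%. The DLEU2 region at chr13:50080386-50082988, which it shares with DLEU1, had 6.33, 8.35, 16.5 and 27.4 in the OVCAR-3 libraries and 21.7, 29.0, 48.5 and 34.5 in the Kuramochi libraries. The OVCAR-3 minus Kuramochi log2 difference was −1.36 (limma adjusted p = 0.00228). LINC02026 was higher in OVCAR-3, by 1.36 (limma adjusted p = 0.00228). PCGF3-AS1 was lower (log2 difference −1.16, limma adjusted p = 0.0100). The PCGF3-AS1 call was lost without OVCAR-3 DMSO replicate 1 (limma adjusted p = 0.0998) or replicate 2 (0.0532), Kuramochi DMSO replicate 2 (0.0841) or Kuramochi INX-315 replicate 1 (0.0984).

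Among lncRNAs that host small nucleolar RNAs, 14 of 33 had a lncRNA-only Rb region (42.4%), beside 7.67% of all lncRNA genes. SNHG6 was the only one called in all libraries, at 6.51 and 11.3 against 14.1 and 24.2 in OVCAR-3, and at 12.9 and 16.9 against 38.7 and 34.3 in Kuramochi. SNHG25 was gained in both lines, at 3.79 and 4.70 in OVCAR-3 and 13.9 and 4.11 in Kuramochi. Such a region was present at 24 of 74 microRNA hosts (32.4%), 5 of them called in all libraries. Over all lncRNA genes, 118 of the 1439 with such a region had one called in all 8 libraries. These shares called in all libraries were not tested. MIR210HG, host of the hypoxia-induced miR-210, was gained in both lines, at 3.83 and 11.3 in OVCAR-3 and 9.49 and 5.85 in Kuramochi. MIR155HG was gained in OVCAR-3 only, at 5.17 and 8.70.

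Of 46 well studied lncRNA genes, 17 (37.0%) had a lncRNA-only region, and DLEU1, GHET1 and SAMMSON had one called in all 8 libraries. DLEU1 shares such a region with DLEU2, which is counted above among the microRNA hosts. NORAD, which sequesters PUMILIO proteins, was gained in both lines, at 6.12 and 12.9 in OVCAR-3 and 7.89 and 6.87 in Kuramochi. HOTAIR, transcribed within the HOXC cluster, was gained in OVCAR-3 at 3.55 and 6.93, and 1 Kuramochi INX-315 library also called it at 4.93. KCNQ1OT1, the imprinted transcript antisense to KCNQ1, was gained in Kuramochi at 9.95 and 8.49, and in OVCAR-3 both INX-315 libraries (7.59 and 12.2) and 1 DMSO library (4.01) called it. MALAT1, NEAT1, MEG3 and MIAT were each called in 1 library, at 4.27 to 5.65.

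The 200 bp windows of the lncRNA-only regions held a median of 14 CpG dinucleotides, against 19 at coding promoter regions and 3 at starts of lncRNA genes without an Rb region. Among lncRNA-only regions with 15 or more CpG dinucleotides, 10.0% were called in all 8 libraries and 25.9% in a single one. With 0 to 4 the shares were 0.498% and 76.6%. CpG number therefore moved with how often a region was called, and its part in that was not tested.

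An E2F string (TTTCCCGC, TTTGGCGC, TTTCGCGC or TTTGCCGC, on either strand) was present in 59 lncRNA-only windows, or 4.32% (95% Wilson interval 3.36 to 5.53, counting error only). It was present in 3.96% of coding promoter windows, in 0.510% of windows at starts of lncRNA genes without an Rb region and in 1.26% of windows at all lncRNA starts. Windows at lncRNA starts were centred on the annotated start and not on a summit. They held fewer CpG dinucleotides, with medians of 3 and 4 against 14 in the lncRNA-only windows. Every E2F string holds a CpG, and the part of base composition in these shares was not tested. Of the lncRNA-only regions called in all 8 libraries 2 of 96 (2.08%) held one, against 6.47% of the coding promoter regions called in all 8. Among those gained in both lines 1 of 80 did. The GC box GGGCGG was present in 44.6% of lncRNA-only and 58.4% of coding promoter windows, and the CHR string TTTGAA in 6.22% and 3.79%. In a window of 100 bp the E2F share was 1.61%. These matches are strings in a window and not evidence of binding by a factor.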

How the data were processed

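Rb CUT&RUN was analysed from peak lists of 8 Rb and 2 IgG2a libraries. The authors aligned reads to hg38 with Bowtie2 (version 2.3.4.1), kept duplicates and called peaks in each library with MACS2 (version 2.2.7.1) at a q-value of 0.05 against the IgG2a library of the line. The deposited lists give a fold enrichment (a ratio to local background), −log10 p and q values and a display score, which was not used; the authors did not pool replicates. Read totals were not analysed here. Whole fragments at summits were recovered from the fold enrichment and p-value within a relative tolerance of 3e-05, for at least 98.6% of peaks per library. The lowest background at any peak of a library, taken as a measure of depth, was 0.216 to 0.501 fragments per base. OVCAR-3 had 0.495 and 0.501 with DMSO against 0.307 and 0.421 with INX-315, and Kuramochi 0.445 and 0.380 against 0.405 and 0.216. The lowest value was also the most common one, except in OVCAR-3 DMSO replicate 2, where 1.036 was the most common. By this measure treatment and depth differed together in part.

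Promoters came from GENCODE release 44. Libraries were compared by exact two-sided permutation of labels within lines and by exact sign flips. Regions called in all 8 libraries were fitted with limma (version 3.58.1) on log2 fold enrichment with Benjamini-Hochberg adjustment over all regions. The fit was tested on simulated data, where isolated changes of 1 on the log2 scale were seldom recovered and those of 2 or 3 mostly were. The fold enrichment adds 1 to both counts, which understates large changes at low background. Residuals are shared across regions of a library, so adjusted p-values are too small where a whole library shifts. Same-numbered replicates did not deviate together (Pearson r = −0.037 in OVCAR-3 and 0.0008 in Kuramochi), so they were not paired. Named regions were those with a lncRNA symbol, taken by highest mean rank among regions called in all 8 libraries, gained in both lines, or confined to a line, by the largest limma changes, and from lists of snoRNA hosts, microRNA hosts and well studied lncRNAs. Symbols of the last list that were without a lncRNA gene of that name were left out. Regions, lists and rules were chosen with earlier results of these data known. Some regions that the rule takes are not reported here. In total 8 motifs were searched, of which the E2F strings were planned.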

Additional observations from a re-analysis of the deposited data

Results flagged for a closer look

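IgG2a peaks, which no comparison used, overlapped 1 lncRNA-only region in OVCAR-3 and 1 in Kuramochi. In both lines it was the TSPEAR-AS1 region at chr21:44505183-44505622, called in 4 of the 8 Rb libraries, with fold enrichments of 3.28 in OVCAR-3 DMSO replicate 2 and 7.90, 5.40 and 5.12 in 3 Kuramochi libraries. With 2 libraries per group, no search for a library standing apart was made within groups.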

How the results depend on the processing

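With lists of equal length, the log2 ratio of lncRNA-only regions called turned to −0.11, its difference from coding promoter regions to −0.18, and the gained regions fell to 17 in OVCAR-3 and 21 in Kuramochi. With libraries centred on their median, the limma treatment calls numbered 16 averaged over lines (2 higher and 14 lower), 7 in OVCAR-3 and 3 in Kuramochi, with those of each line all lower, and the line calls 33. Treatment values then turned to −0.031 for LINC01144, −0.45 for MIRLET7IHG, −0.38 for MIR9-1HG and −0.29 for DLEU2. With regions called in at least 6 of 8 libraries, 155 and 149 lncRNA-only regions passed averaged over lines and in OVCAR-3, where more regions were tested. The E2F share was 1.61% in windows of 100 bp, which hold fewer bases.

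Leaving out each library in turn gave 267 to 650 gained regions for OVCAR-3 and 219 to 434 for Kuramochi, limma treatment calls of 79 to 95 averaged over lines, 43 to 98 for OVCAR-3 and 0 to 68 for Kuramochi, and line calls of 4 to 21, with 21 without OVCAR-3 INX-315 replicate 1. The OVCAR-3 count was 43 without INX-315 replicate 2 and 51 without DMSO replicate 1. A group left with 1 library was assumed to vary like the others. Where replicate numbers served as a block, the log2 ratio of 1.54 and the difference of 0.57 had exact permutation p-values of 0.125, the smallest possible with 16 arrangements, and the limma counts of 85, 80, 61, 0 and 8 were as without the block. Of the single regions, 10 more treatment calls were lost after centring, those of MIRLET7IHG and MIR9-1HG also without Kuramochi DMSO replicate 1 (limma adjusted p = 0.0838 and 0.0562), and the PCGF3-AS1 line call without any of 4 libraries (0.0532 to 0.0998). The causes of these changes were not tested. Summits of lncRNA-only peaks held a median of 8.5 to 12 fragments per library.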
